A study of Mus musculus with 12 samples.

Results

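The genes described here are 10 transcripts that mark the endothelial cells of blood vessels, Cldn5, Pecam1, Cdh5, Flt1, Kdr, Tek, Tie1, Slco1c1, Ly6c1 and Esam, read in RNA from eGFP+ cells sorted out of injured mouse spinal cord. They were chosen by name as a list of endothelial markers, and no measured value entered the choice. All 10 were among the 16389 genes of the table, and all 10 passed the filter on low values. None was called changed in any of the 9 comparisons made, where between 0% and 0.452% of all 16388 genes tested were called.

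The libraries come from male Aldh1l1-EGFP transgenic mice on a Swiss Webster background, in which the regulatory sequence of Aldh1l1 drives eGFP in astrocytes. Adult mice aged 12 weeks received a lesion at thoracic level 9, and living eGFP+ cells were sorted from a 1 cm segment around it. FT 2 weeks (3 libraries) and FT 1 week (1 library) are mice after full transection, and HS 2 weeks (2 libraries) and HS 1 week (3 libraries) are mice after lateral hemisection. NI (3 libraries) are non-injured mice of the same transgenic line, from which the matching thoracic segment was taken. All 5 groups carry the transgene and were sorted by the same eGFP gate, which was set for astrocytes and not for vessels. The study counts more animals than libraries, and how cells of different animals were combined is not given in the sources used here. The p-values therefore measure the spread between these libraries only.

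Endothelial cells line the vessels of the spinal cord and form the blood-spinal cord barrier, with tight junctions between the cells and transporters in their membranes. Signals of the VEGF family, which act through the receptors Flt1 and Kdr, and of the angiopoietins, which act through Tek with Tie1, govern the growth and the stability of vessels. Astrocyte endfeet ensheathe these vessels, and cord injury is known to disrupt vessels and barrier around the lesion before new vessels grow.

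Values are normalized counts, which are reads per gene divided by 1 scaling factor per library, and 1 read was worth between 0.0612 and 0.134 normalized counts. The libraries held 8270643 reads in FT 1 week and up to 15562378 reads in 1 HS 1 week library. The libraries held transcripts that mark more than 1 cell type. By staining, the study observed no eGFP in microglia or macrophages, oligodendrocytes or neurons. Which cells these transcripts came from was not tested. Summed over 12 oligodendrocyte markers, the libraries held between 55363 and 115183 normalized counts, against 2683 to 14675 for 16 astrocyte markers. Fibroblast markers ranged from 162 to 11924 normalized counts and microglia and macrophage markers from 1004 to 16745, and Aldh1l1 itself had 10.2 to 126.7. NI replicate 1 stood apart from the other NI libraries, with 7290 normalized counts of fibroblast markers and 1004 of microglia and macrophage markers, against 495 to 662 and 7262 to 9371 in NI replicates 2 and 3. No endothelial gene was called with or without this library. In all comparisons below, a gene was called changed at an adjusted p under 0.05 in limma-trend together with a change of at least 2-fold. In such bulk samples, fewer cells of a type and less RNA per cell cannot be told apart.

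The endothelial genes were present at low levels in every library. Between 315 reads (FT 1 week) and 1924 reads (NI replicate 2) fell on the 10 genes together, with 6 reads for the rarest entry (Tek in FT 1 week) and 808 for the most abundant (Slco1c1 in NI replicate 2). Their summed level was 62.4, 139.6 and 82.1 normalized counts in FT 2 weeks, 42.3 in FT 1 week, 83.5 and 74.6 in HS 2 weeks, 69.0, 76.7 and 84.4 in HS 1 week and 64.1, 122.8 and 55.1 in NI. FT 1 week was the lowest of the 12 libraries, and the other groups overlapped. This rank rested on Slco1c1, without which HS 1 week replicate 2 was the lowest with 26.8, and FT 1 week had 38.3 beside 40.0 to 71.2 in NI. These sums are between 0.00381% and 0.0145% of all normalized counts of a library.

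Per kb of exon, which allows genes to be compared with each other, Ly6c1 had the highest mean level with 7.51 normalized counts per kb. Slco1c1 followed with 4.88, Cldn5 with 3.08 and Esam with 2.53. Cdh5 had 1.21, Pecam1 0.918, Tie1 0.732, Tek 0.703, Flt1 0.582 and Kdr 0.508 normalized counts per kb. The ranges over the 12 libraries overlapped between each gene and the next in this order. Kdr stood at percentile 16.7 of all genes with a known length and Ly6c1 at percentile 69.6. The median of the 10 genes was 1.07 normalized counts per kb, close to the 0.927 of 21 other pan-endothelial genes, the 1.25 of 11 mural cell genes and the 1.499 of 11 neuron genes. The median of the astrocyte list was 53.3, of the microglia and macrophage list 79.1, of the fibroblast list 18.7 and of the oligodendrocyte list 552 normalized counts per kb. The endothelial genes were thus at the level of the vessel wall and neuron markers, and below those of the 4 abundant lists.

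**Figure D1:**
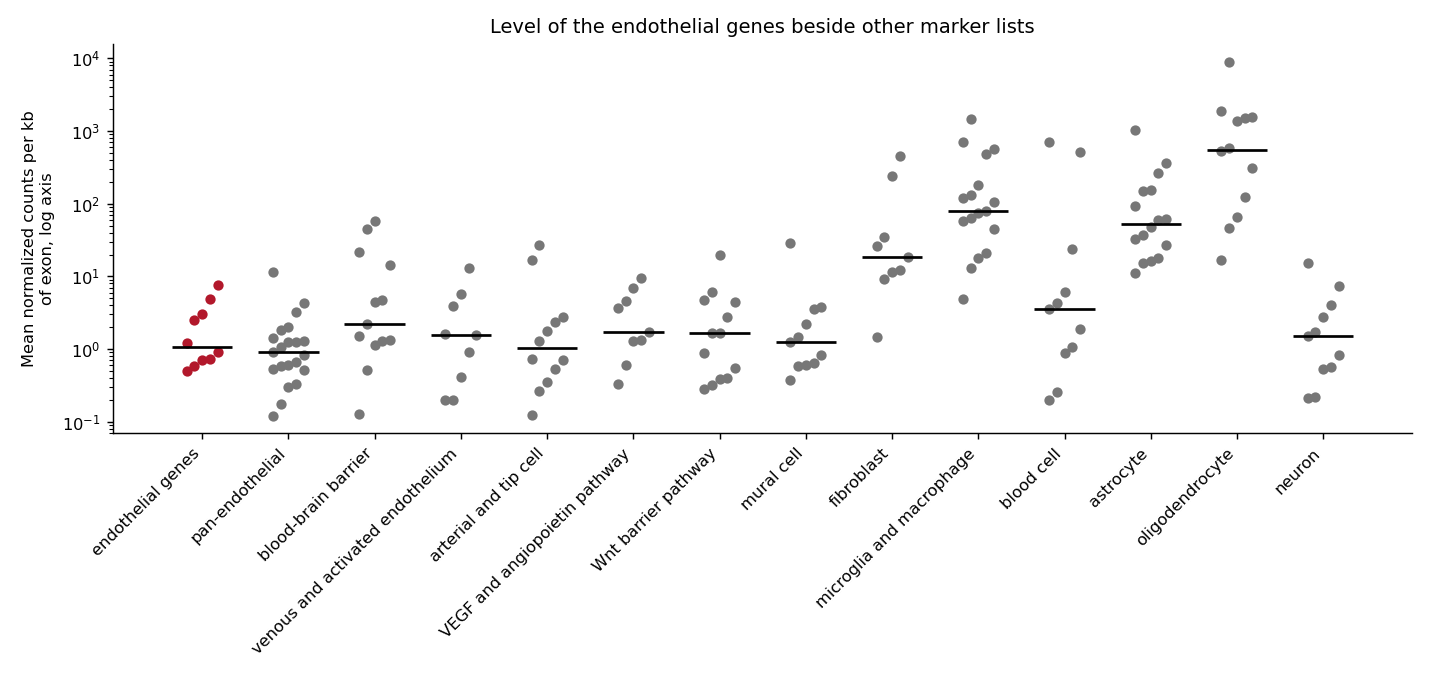
Mean level over the 12 libraries in normalized counts per kb of exon (log axis), 1 point per gene, for the endothelial genes (red) and 13 other marker lists (grey), with a black line at the median of each list. The endothelial genes lie between 0.508 and 7.51, and the median of the oligodendrocyte list is 552.

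Of the junction and adhesion genes, Cldn5 encodes claudin 5, the main claudin of the tight junctions of the brain and cord endothelium (GRCm38 chromosome 16, 18776847 to 18778262, plus strand). Cldn5 had 3.07, 6.99 and 2.45 normalized counts in FT 2 weeks, 1.88 in FT 1 week, 5.91 and 5.27 in HS 2 weeks, 3.76, 2.17 and 9.48 in HS 1 week and 1.65, 6.19 and 3.45 in NI. The highest library belonged to HS 1 week and the lowest to NI, and every injured group had a library inside the NI range.

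Pecam1 encodes CD31, an adhesion molecule of endothelial junctions that platelets and leukocytes also carry (chromosome 11, 106654217 to 106750628, minus strand). Pecam1 had 1.75, 4.43 and 3.11 normalized counts in FT 2 weeks, 6.31 in FT 1 week, 4.2 and 3.66 in HS 2 weeks, 4.61, 1.995 and 9.85 in HS 1 week and 3.06, 8.49 and 17.1 in NI. NI replicate 3 was the highest, 9.77 times the lowest library, and the NI libraries alone spanned most of the range.

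Cdh5 encodes VE-cadherin, the adherens junction protein of endothelium (chromosome 8, 104101625 to 104144511, plus strand). Cdh5 had 8.47, 14.4 and 4.67 normalized counts in FT 2 weeks, 1.75 in FT 1 week, 2.21 and 3.74 in HS 2 weeks, 3.52, 2.95 and 1.59 in HS 1 week and 11.9, 3.57 and 2.38 in NI. The 3 FT 2 weeks libraries and NI replicate 1 were the 4 highest, at 4.67 or more against 3.74 or less in the other 8 libraries. FT 1 week lay below every NI library, as it did for 6 of the 10 genes, where 57.3% of all genes did not overlap in either direction.

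Esam encodes an adhesion molecule of endothelial tight junctions and platelets (chromosome 9, 37528078 to 37538319, plus strand). Esam had 3.58, 17.1 and 7.26 normalized counts in FT 2 weeks, 4.57 in FT 1 week, 6.12 and 7.69 in HS 2 weeks, 4.49, 3.9 and 10.8 in HS 1 week and 5.66, 10.1 and 5.83 in NI. One FT 2 weeks library was the highest and another the lowest of all 12, 4.79 times apart.

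Flt1 encodes VEGF receptor 1, which binds VEGF-A and placental growth factor and limits the VEGF-A that reaches Kdr (chromosome 5, 147561604 to 147726011, minus strand). Flt1 had 5.11, 10.3 and 6.67 normalized counts in FT 2 weeks, 3.36 in FT 1 week, 24.98 and 7.84 in HS 2 weeks, 7.76, 3.3 and 10.03 in HS 1 week and 3.61, 7.21 and 4.17 in NI. Both HS 2 weeks libraries were above the NI libraries, but only replicate 1 stood above the other injured libraries, and it was the highest of all 12.

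Kdr encodes VEGF receptor 2, the main signalling receptor for VEGF-A in endothelium (chromosome 5, 75932827 to 75978458, minus strand). Kdr had 2.48, 3.26 and 3.85 normalized counts in FT 2 weeks, 4.43 in FT 1 week, 6.76 and 4.18 in HS 2 weeks, 4.49, 1.56 and 10.2 in HS 1 week and 2.91, 7.34 and 3.6 in NI. The highest and the lowest library were both HS 1 week, and no injured group lay outside the NI range as a whole.

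Tek encodes Tie2, the angiopoietin receptor (chromosome 4, 94739289 to 94874976, plus strand). Tek had 2.85, 4.89 and 2.37 normalized counts in FT 2 weeks, 0.806 in FT 1 week, 5.55 and 5.64 in HS 2 weeks, 4.12, 2.26 and 3.24 in HS 1 week and 2.28, 2.81 and 2.95 in NI. The 2 HS 2 weeks libraries were the highest of the 12 and close to each other, and FT 1 week was the lowest, on 6 reads. By group mean the order was HS 2 weeks (5.60 ± 0.06, SD, n = 2), FT 2 weeks (3.37 ± 1.34, n = 3), HS 1 week (3.21 ± 0.93, n = 3), NI (2.68 ± 0.35, n = 3) and FT 1 week (0.806, n = 1). The means of FT 2 weeks, HS 1 week and NI were within 1 SD of the next.

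Tie1 encodes the partner receptor of Tie2, which binds no angiopoietin strongly by itself (chromosome 4, 118471191 to 118490061, minus strand). Tie1 had 6.21, 5.13 and 4.23 normalized counts in FT 2 weeks, 1.48 in FT 1 week, 5.05 and 3.15 in HS 2 weeks, 3.27, 1.82 and 4.28 in HS 1 week and 2.36, 3 and 3.24 in NI. The 3 FT 2 weeks libraries lay above the 3 NI libraries without overlap, and FT 1 week lay below them.

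Slco1c1 encodes OATP1C1, a thyroxine transporter of barrier endothelium that rodent astrocytes also express (chromosome 6, 141524368 to 141570177, plus strand). Slco1c1 had 21.03, 45.3 and 36.3 normalized counts in FT 2 weeks, 4.03 in FT 1 week, 9.89 and 22.6 in HS 2 weeks, 21.3, 49.9 and 9.18 in HS 1 week and 24.1, 51.6 and 8.64 in NI. This gene was the most variable of the 10, with 12.8 times between its extremes. Its libraries fell into 4 at 9.89 or less and 8 at 21.03 or more, and HS 2 weeks, HS 1 week and NI each had libraries on both sides.

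Ly6c1 encodes a GPI-anchored Ly6 family protein of brain endothelium that some leukocytes also carry (chromosome 15, 75044018 to 75048830, minus strand). Ly6c1 had 7.89, 27.7 and 11.2 normalized counts in FT 2 weeks, 13.7 in FT 1 week, 12.9 and 10.8 in HS 2 weeks, 11.6, 6.85 and 15.7 in HS 1 week and 6.6, 22.5 and 3.67 in NI. FT 2 weeks and NI each held a library above 20 and one below 10.

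Ly6c1 has a near copy, Ly6c2, a marker of monocytes (chromosome 15, 75108158 to 75111970, minus strand). The coding sequences of their main transcripts have 396 bases each, differ at 9 and are 97.7% identical, with an unbroken identical run of 188 bases. The first 150 coding bases of each, taken from the GENCODE M21 transcripts, are shown because a read that falls between the differing bases is the same for both genes. The bases that differ are in capitals.
Ly6c1: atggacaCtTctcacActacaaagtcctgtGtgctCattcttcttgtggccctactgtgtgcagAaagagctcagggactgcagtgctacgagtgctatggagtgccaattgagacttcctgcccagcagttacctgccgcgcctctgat
Ly6c2: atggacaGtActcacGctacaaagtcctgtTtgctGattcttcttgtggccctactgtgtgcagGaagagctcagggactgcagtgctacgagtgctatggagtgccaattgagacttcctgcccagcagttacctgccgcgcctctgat
How the authors' counting split reads between these copies is not given in the sources used here, so both levels are uncertain. Ly6c2 had 1.68, 5.13 and 2.37 normalized counts in FT 2 weeks, 10.2 in FT 1 week, 2.78 and 1.03 in HS 2 weeks, 2.3, 2.69 and 33.2 in HS 1 week and 4.09, 43.7 and 93.6 in NI. Its 3 highest libraries, NI replicates 2 and 3 and HS 1 week replicate 3, included 2 of the 3 highest for Ly6c1, and the 4 highest of both genes shared 3 libraries. However, NI replicate 3, the highest in Ly6c2, was the lowest of the 12 in Ly6c1, with 3.67 normalized counts. The 4 lowest of both genes shared 1 library.

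**Figure D2:**
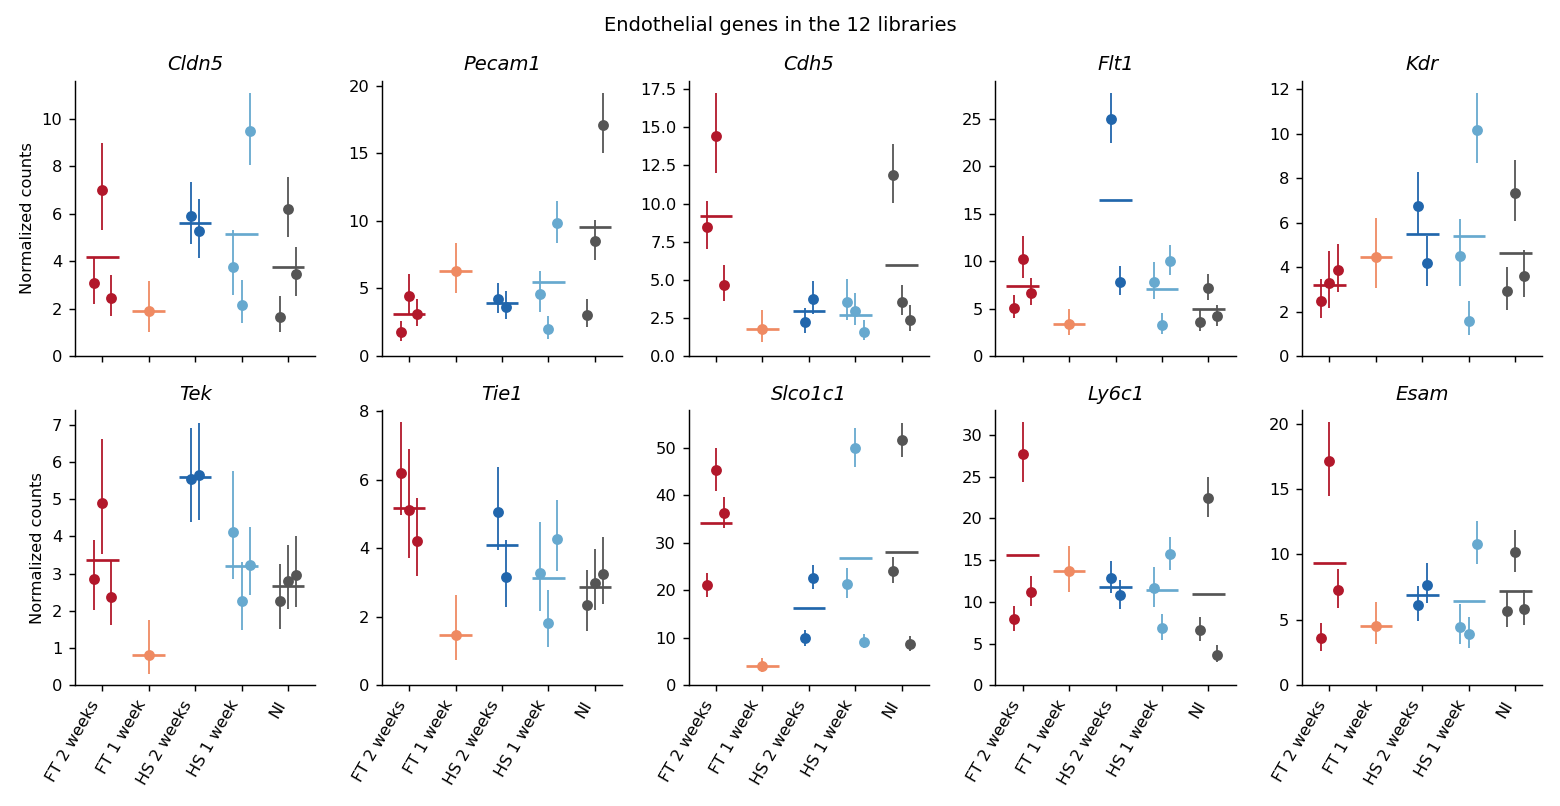
Normalized counts of each endothelial gene (linear axes from 0) in the libraries of FT 2 weeks, FT 1 week, HS 2 weeks, HS 1 week and NI. Points are libraries with 95% Poisson intervals of their reads, which cover counting error only, and lines are group means. In 6 of the panels the single FT 1 week point lies below all NI points, and 57.3% of all genes did not overlap in this comparison, in either direction.

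The first question was whether vessel transcripts in the sorted fraction changed after each injury. At 2 weeks after FT, 0 of the 10 genes were called against NI, where limma called 0.0427% of all 16388 genes tested. Tie1 was the only one with an unadjusted p under 0.05, a share that was 10.8% over all genes, and it changed on the log2 scale by 0.67 ± 0.29 (SE, adjusted p = 0.448). It was also the only one whose groups did not overlap, against 14.9% of all genes. Pecam1 had the largest difference, at -1.17 ± 0.57 (SE, adjusted p = 0.494), with means of 3.10 ± 1.34 in FT 2 weeks and 9.56 ± 7.09 in NI (SD, n = 3 each). The fold changes of 8 of the 10 genes were positive, with a median of 0.34 on the log2 scale beside -0.01 over all genes. EdgeR's quasi-likelihood and likelihood ratio tests and DESeq2 each called 0 of the 10 as well. With array quality weights, which give less weight to libraries far from their group, Pecam1 passed the threshold (log2 fold change -1.45, adjusted p = 0.0396). These weights called 1447 of all 16388 genes here, beside 7 without them. Without NI replicate 3 the change of Pecam1 was -0.65 on the log2 scale.

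At 1 week after FT, 0 of the 10 genes were called against NI, where the share over all genes was 0.452%. The 6 genes below every NI library were Cdh5, Esam, Flt1, Tek, Tie1 and Slco1c1, but with 1 injured library 57.3% of all genes did not overlap NI. Tek at -1.02 ± 0.38 (SE, adjusted p = 0.351) and Slco1c1 at -2.21 ± 0.96 (SE, adjusted p = 0.426) had unadjusted p-values under 0.05, against 11.2% of all genes. The median of the 10 fold changes was -0.56 beside -0.02 over all genes. With its 1 library, FT 1 week is assumed to vary as much as the groups with replicates do. Summed astrocyte markers, which include no endothelial gene, were 4055 normalized counts in FT 1 week and 2939 to 8397 in NI, and microglia and macrophage markers were 13647 in FT 1 week and 1004 to 9371 in NI. Their part in the low endothelial levels was not tested. The other 3 tools named above also called 0 of the 10.

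At 2 weeks after HS, 0 of the 10 genes were called against NI, where 0.0122% of all genes were. Flt1, at 1.38 ± 0.53 (SE, adjusted p = 0.585), and Tek, at 0.85 ± 0.30 (SE, adjusted p = 0.576), had unadjusted p-values under 0.05, against 7.49% of all genes. They were also the 2 genes whose HS 2 weeks libraries both lay above all NI libraries, against 24.5% of all genes. Without HS 2 weeks replicate 1 the log2 fold change of Flt1 was 0.61. For Flt1 the means were 16.4 ± 12.1 in HS 2 weeks (SD, n = 2) and 5.001 ± 1.94 in NI (n = 3). For Tek the means were 5.60 ± 0.06 in HS 2 weeks (n = 2) and 2.68 ± 0.35 in NI (n = 3). The median of the 10 fold changes was 0.32 beside -0.02 over all genes, and the other 3 tools called 0 of the 10.

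At 1 week after HS, 0 of the 10 genes were called against NI, where 0.0061% of all genes were. No gene had an unadjusted p under 0.05 and none had groups that did not overlap, against 7.66% and 12.3% of all genes. The fold changes ran from -0.70 ± 0.51 (SE, adjusted p = 0.758) for Cdh5 to 0.36 ± 0.48 (SE, adjusted p = 0.884) for Flt1, with a median of 0.04 beside -0.03. The 95% intervals of all 10 included 0, and the widest, for Slco1c1, ran from -1.54 to 1.45, which includes a change of 2-fold in either direction. The other 3 tools called 0 of the 10.

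These 4 comparisons share the 3 NI libraries. The mean of the 4 injured groups against NI called 0 of the 10 genes as well, where 0.293% of all genes were called, and no gene had an unadjusted p under 0.05, against 13.9% of all genes. Its median fold change was 0.02 beside -0.03, with Pecam1 lowest at -0.74 ± 0.48 (SE, adjusted p = 0.539) and Ly6c1 highest at 0.51 ± 0.49 (SE, adjusted p = 0.699). The other 3 tools called 0 of the 10.

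**Figure D3:**
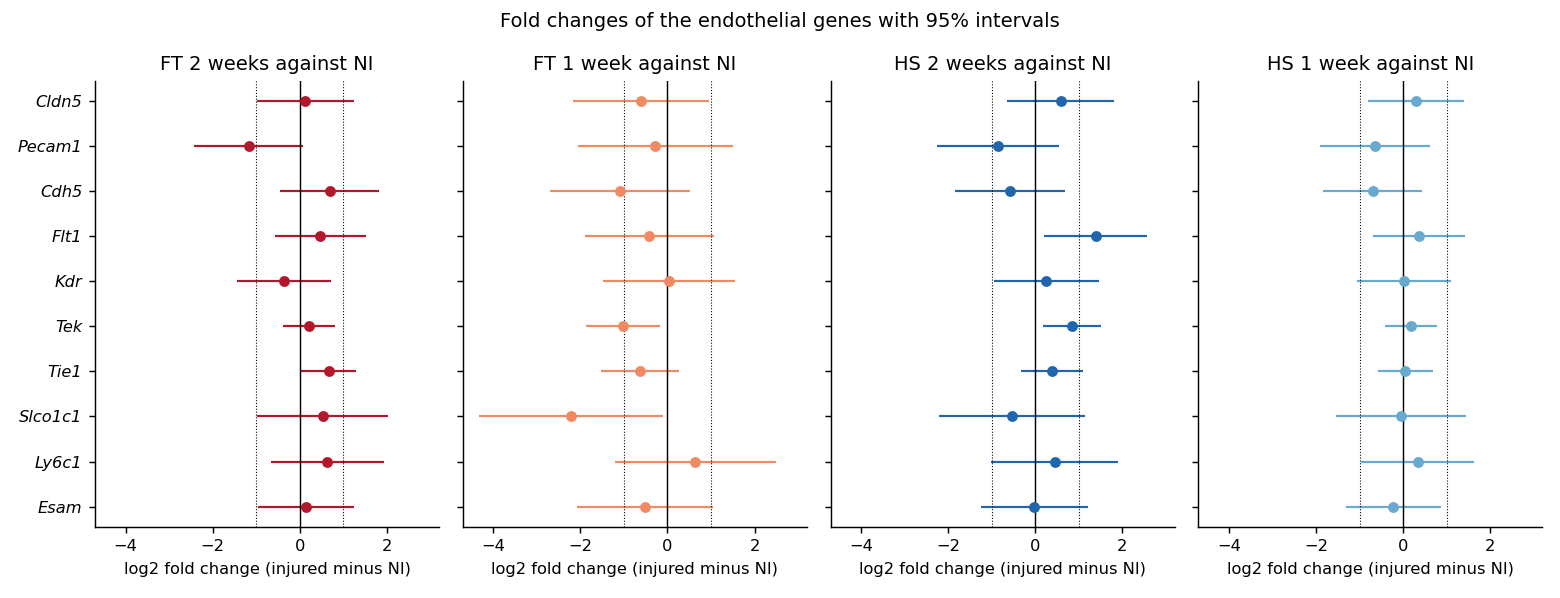
Log2 fold change (injured minus NI, on log2 of the normalized count plus 1) of the endothelial genes with 95% intervals from limma, for FT 2 weeks, FT 1 week, HS 2 weeks and HS 1 week, with dotted lines at 2-fold. Most intervals cross 0, and FT 1 week rests on 1 library.

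The second question was whether severity made a difference. At 2 weeks, FT against HS called 0 of the 10 genes, where limma called 0% of all genes and the other tools also called none. Cdh5, at 1.27 ± 0.57 (SE, adjusted p = 0.961), had an unadjusted p under 0.05, against 2.26% of all genes. Its FT libraries lay above the HS libraries, with means of 9.20 ± 4.93 in FT 2 weeks (SD, n = 3) and 2.97 ± 1.08 in HS 2 weeks (n = 2). Kdr and Tek had FT libraries below those of HS without overlap, against 21.1% of all genes that did not overlap in either direction. The fibroblast list was summed at 6167 to 11924 normalized counts in FT 2 weeks and 1467 to 4733 in HS 2 weeks, and its part in the Cdh5 values was not tested.

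At 1 week, FT against HS called 0 of the 10 genes, where 0.348% of all genes were called. Tek, at -1.20 ± 0.38 (SE, adjusted p = 0.513), and Slco1c1, at -2.17 ± 0.96 (SE, adjusted p = 0.871), had unadjusted p-values under 0.05, against 5.64% of all genes. Cldn5, Tek, Tie1 and Slco1c1 were below all 3 HS libraries in the 1 FT library, against 42.5% of all genes that did not overlap. With array quality weights Tek passed the threshold (log2 fold change -1.43, adjusted p = 0.0454), still on the 1 FT library. In FT 1 week against NI, these weights called 928 of all 16388 genes, beside 74 without them. The other 3 tools called 0 of the 10.

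The third question was time. From the same FT 1 week library, 2 weeks against 1 week after FT called 0 of the 10 genes, where 0.384% of all genes were called, and 4 genes had unadjusted p-values under 0.05, against 9.17% of all genes. These were Cdh5 at 1.77 ± 0.72 (SE, adjusted p = 0.496), Tek at 1.23 ± 0.38 (SE, adjusted p = 0.329), Tie1 at 1.31 ± 0.40 (SE, adjusted p = 0.329) and Slco1c1 at 2.74 ± 0.96 (SE, adjusted p = 0.404). The FT 2 weeks libraries lay above the FT 1 week library for 6 genes and below it for Pecam1 and Kdr, and 58.0% of all genes did not overlap. The median of the 10 fold changes was 0.82 beside -0.01 over all genes.

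With only these 2 groups in the model, Cdh5, Slco1c1 and Tie1 passed the threshold, while the other 3 tools called 0 of the 10. Over all genes this smaller model called 1575, beside 63 in the main model, so such calls were common in it. Such a model takes its spread from the 3 FT 2 weeks libraries alone. After HS, 2 weeks against 1 week called 0 of the 10 genes and 0% of all genes, with Tek at 0.67 ± 0.30 (SE, adjusted p = 1.0) the only one with an unadjusted p under 0.05, against 1.62% of all genes. Tek was also the only one without overlap, against 12.5% of all genes, and the other 3 tools called 0 of the 10.

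Other endothelial lists were read beside the 10 genes. Of 21 other pan-endothelial genes, limma called 0 in any comparison. Unadjusted p-values under 0.05 were found for 6 of them in FT 2 weeks, 4 in FT 1 week, 1 in HS 2 weeks and 4 in HS 1 week against NI. The shares over all genes were 10.8%, 11.2%, 7.49% and 7.66% in this order. The ETS transcription factor Erg had the lowest adjusted p of the list for the mean of the injured groups against NI, 0.081, with a log2 fold change of -0.83 ± 0.17 (SE), and edgeR's likelihood ratio test and DESeq2 called it there together with Cd93 (-1.16 ± 0.37 by limma) and Myct1 (-1.67 ± 0.45). In FT 2 weeks against NI the likelihood ratio test also called Erg and DESeq2 Cd93, and in 2 weeks against 1 week after FT DESeq2 called the endothelial receptor Robo4 (1.88 ± 0.52 by limma). For these and the other genes that limma did not call, limma's log2 fold change and its SE are given. Of all 16388 genes, the likelihood ratio test called 670 and DESeq2 542 in the mean of the injured groups against NI. They called 363 and 340 in FT 2 weeks against NI, and 297 and 370 in FT 1 week against NI. Erg had 0.146, 0.35 and 0.519 normalized counts in FT 2 weeks, 0.269 in FT 1 week, 0.427 and 0.44 in HS 2 weeks, 0.121, 0.26 and 0.551 in HS 1 week and 1.65, 0.83 and 1.73 in NI. It was lower in every injured library than in every NI library, but its level was under 2 normalized counts throughout. In this comparison 2 genes of the list were lower without overlap and 1 was higher, against 2.97% of all genes in either direction. Cd34, a sialomucin of endothelium and progenitor cells and the most abundant gene of the list, had 52.1, 61.6 and 66.9 normalized counts in FT 2 weeks, 58.4 in FT 1 week, 221.1 and 58.2 in HS 2 weeks, 56.1, 21.4 and 226.2 in HS 1 week and 29.2, 63.9 and 106.2 in NI. Its highest libraries were HS 2 weeks replicate 1 and HS 1 week replicate 3, and no comparison called it. Of 13 blood-brain barrier genes limma called 0. Against NI, 2 in FT 2 weeks, 3 in FT 1 week, 1 in HS 2 weeks and 0 in HS 1 week had unadjusted p-values under 0.05, beside the same shares of all genes. Other tools called 2 of the 13. The likelihood ratio test and DESeq2 called the organic anion transporter Slco1a4 in FT 1 week against NI (2.68 ± 0.66 by limma) and the amino acid transporter Slc38a5 in 2 weeks against 1 week after FT (2.38 ± 0.49). DESeq2 alone also called Slco1a4 in the mean of the injured groups (1.25 ± 0.39) and Slc38a5 in FT 2 weeks against NI (1.21 ± 0.34). Slc2a1, the glucose transporter of this barrier, had 251.7, 219.1 and 154.6 normalized counts in FT 2 weeks, 192.7 in FT 1 week, 210.8 and 186.8 in HS 2 weeks, 188.4, 302.9 and 180.1 in HS 1 week and 230.1, 210.3 and 133.3 in NI. It was not called in any comparison.

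Of 9 venous and activated endothelium genes, Selp, which encodes the P-selectin that recruits leukocytes and that platelets also store, was the only one called by limma, in the 2 comparisons of the FT 1 week library with another injured group. Selp had 0.438, 0.233 and 0.445 normalized counts in FT 2 weeks, 3.63 in FT 1 week, 0.285 and 0.513 in HS 2 weeks, 0.606, 0.607 and 0.734 in HS 1 week and 0.707, 1.15 and 1.08 in NI. It differed by 1.49 ± 0.23 on the log2 scale in FT against HS at 1 week (SE, adjusted p = 0.0209) and by -1.76 ± 0.23 in 2 weeks against 1 week after FT (adjusted p = 0.00809). Both rest on the 3.63 normalized counts of a single library. The call in FT against HS was lost with edgeR's quasi-likelihood test (adjusted p = 0.0965), with DESeq2 (0.120) and without HS 1 week replicate 1 (0.0757) or replicate 2 (0.0685). Other tools called 2 more genes of this list. For comparisons with NI, their counts over all genes stand above, for this list and for those below. The likelihood ratio test called the E-selectin gene Sele in FT 1 week against NI (1.24 ± 0.27 by limma), and together with DESeq2 it called Lrg1, a secreted glycoprotein, in FT 2 weeks (-1.79 ± 0.68) and in the mean of the injured groups against NI (-1.55 ± 0.57). Both were low, with at most 2.15 normalized counts of Sele and 10.5 of Lrg1 in any library. The 12 arterial and tip cell genes, the 9 genes of VEGF and angiopoietin signals, the 13 of the Wnt barrier pathway and the 11 mural cell genes gave 0 calls by limma in every comparison. Of these 4 lists, the likelihood ratio test and DESeq2 called Aplnr, the receptor of apelin, in FT 2 weeks against NI (1.95 ± 0.52 by limma) and Lef1, a nuclear effector of Wnt signals, in the mean of the injured groups (-1.01 ± 0.28). DESeq2 alone called Lef1 in FT 1 week against NI (-1.85 ± 0.47) and Tspan12, a tetraspanin of Norrin signalling, in FT against HS at 1 week (-1.95 ± 0.44). Unadjusted p-values under 0.05 were found in FT 1 week against NI for 1, 2, 5 and 1 genes of the 4 lists in the order given, against 11.2% of all genes. Vegfa, the main VEGF ligand, had 12.5, 18.3 and 37.7 normalized counts in FT 2 weeks, 4.16 in FT 1 week, 6.12 and 22.4 in HS 2 weeks, 11.2, 26.5 and 4.4 in HS 1 week and 46.4, 30.8 and 16.7 in NI. Nrp1, a co-receptor of Kdr, had 61.6, 68.7 and 64.3 normalized counts in FT 2 weeks, 135.4 in FT 1 week, 122.2 and 53.9 in HS 2 weeks, 67.6, 29.3 and 98.2 in HS 1 week and 55.6, 32.4 and 26.8 in NI. Limma called neither in any comparison.

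The most abundant genes of these lists are given by their range over the 12 libraries. Ramp2, a co-receptor of adrenomedullin in endothelium, ran from 5.54 to 22.1 normalized counts, and the transferrin receptor Tfrc from 64.9 to 124.4. The leukocyte adhesion molecules Icam1 and Vcam1 ran from 12.1 to 217 and from 12.2 to 107.9. Icam1 was highest in HS 1 week replicate 3, HS 2 weeks replicate 1 and FT 1 week, libraries with 13647 to 16745 normalized counts of microglia and macrophage markers. Microglia also make Icam1, and their part in its values was not tested. The netrin receptor Unc5b ran from 124 to 208, the peptide Apln from 33.0 to 67.8, the Wnt co-receptor Lrp6 from 45.5 to 79.8 and the Norrin gene Ndp, made by astrocytes, from 20.8 to 65.5. Of the mural cell genes, Vtn, a matrix protein of pericytes, ran from 9.97 to 145.6, and Pdgfrb, the receptor that recruits them, from 5.26 to 43.5. The 3 FT 2 weeks libraries and NI replicate 1 were the 4 highest in Vtn, as they were in Cdh5. None of these genes was called by limma.

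The 10 genes did not vary as 1 group over the 12 libraries. Over their 45 pairs, Pearson's r of log2 values had a median of 0.27 and ran from -0.50 to 0.75, and 9 pairs were negative. The libraries share their scaling, and these correlations carry no test. Flt1 and Tek had the highest r, 0.75, and Cldn5 with Flt1, 0.75, and with Esam, 0.73, came next. Cldn5 had a median r of 0.61 with the other 9 genes, against 0.03 for Pecam1, 0.11 for Cdh5 and 0.13 for Slco1c1. Of these 3, Cdh5 and Slco1c1 had an r of 0.57 with each other and shared their 4 lowest libraries, and Pecam1 had its highest r, 0.60, with Kdr.

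Some of the genes ran beside markers of other cell types by library, and those named here were chosen after the values were seen because their highest or lowest libraries were the same or nearly so. The 4 libraries highest in Cdh5, FT 2 weeks replicates 1, 2 and 3 and NI replicate 1, were the 4 highest in the fibroblast gene Dcn, a matrix proteoglycan. Dcn had 4185, 8846 and 5888 normalized counts in FT 2 weeks, 586.1 in FT 1 week, 929.2 and 3071 in HS 2 weeks, 1579, 1265 and 81.8 in HS 1 week and 5140, 372.6 and 276.6 in NI. The 4 libraries lowest in Slco1c1, FT 1 week, HS 2 weeks replicate 1, HS 1 week replicate 3 and NI replicate 3, were the 4 lowest in Aqp4, the water channel of astrocyte endfeet, and also the 4 lowest in Cdh5. They shared 3 libraries with the 4 lowest in Dcn. Aqp4 had 440.0, 481.2 and 658.4 normalized counts in FT 2 weeks, 96.6 in FT 1 week, 57.9 and 498.2 in HS 2 weeks, 802.4, 817 and 17.7 in HS 1 week and 306.5, 439.5 and 45.99 in NI.

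The 4 libraries highest in Pecam1, FT 1 week, HS 1 week replicate 3 and NI replicates 2 and 3, were the 4 highest in Ly6c2, whose values stand above. The 4 lowest in Pecam1 shared 2 libraries with the 4 lowest in Ly6c2, and the 4 highest in Slco1c1 shared 2 with the 4 highest in Aqp4. The 5 highest in Pecam1 shared 4 libraries with the 5 highest in Csf1r, the receptor that microglia and macrophages depend on. The 4 highest of Pecam1 and Csf1r shared 3. Which cells the Cdh5, Slco1c1 and Pecam1 reads came from was not tested.

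**Figure D4:**
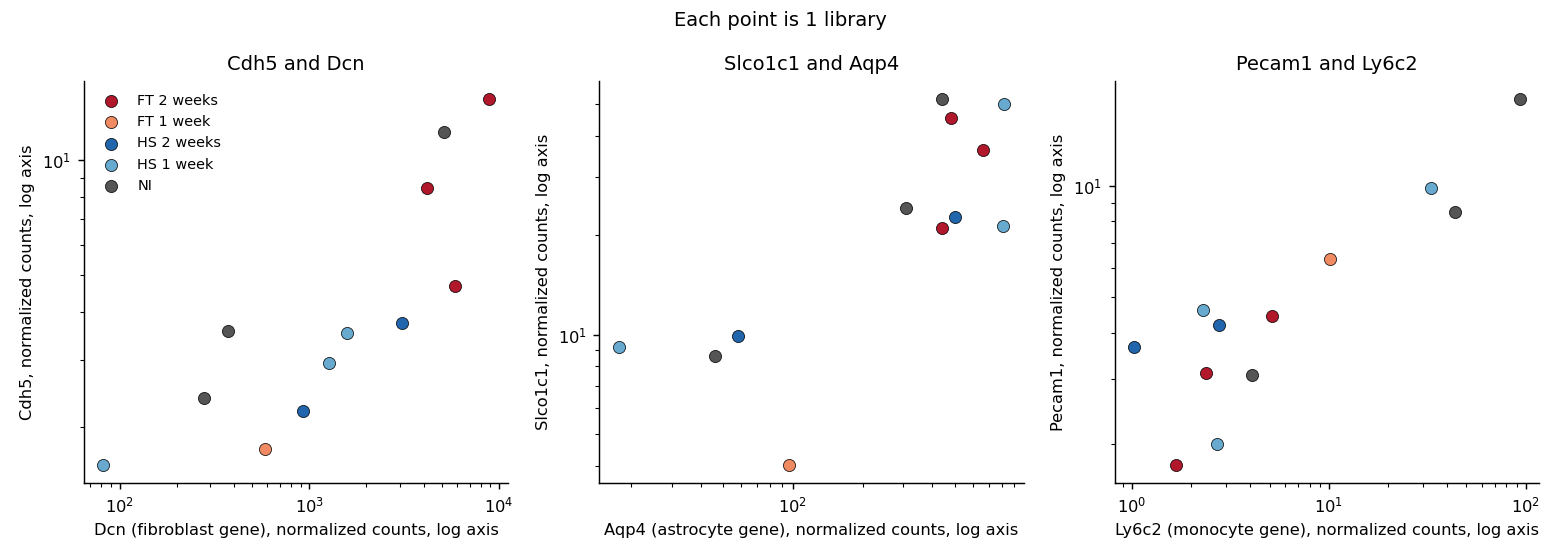
Each point is 1 library, colored by group, with log axes in normalized counts: Cdh5 beside Dcn, Slco1c1 beside Aqp4 and Pecam1 beside Ly6c2. The 4 libraries highest in Cdh5 and in Pecam1 are those highest in Dcn and in Ly6c2, and the 4 lowest in Slco1c1 are those lowest in Aqp4. At the opposite ends the match is partial. The 4 lowest share 3 libraries for Cdh5 and Dcn and 2 for Pecam1 and Ly6c2, and the 4 highest share 2 for Slco1c1 and Aqp4.

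The genes most like the mean of the 10, each standardised over the 12 libraries, were sought among 11259 genes. Ptprb, the endothelial phosphatase VE-PTP that acts on Tie2 and VE-cadherin, came first with r = 0.89. Fbxl12 (0.88), Ngly1 (0.88), Gm14420 (0.84), Net1 (0.84), Rnf6 (0.83), Zfp113 (0.82), Lcor (0.81), Zfp408 (0.81) and Klhl13 (0.79) followed, and none of these is known as an endothelial marker. Across the pan-endothelial list the median r was 0.40, with 17 of 21 positive, beside 0.03 over all genes, 0.23 for microglia and macrophages, 0.00 for fibroblasts and -0.06 for astrocytes. Positive values were found for 8804 of 16379 genes outside the members. They were also found for 17 of 17 microglia and macrophage genes, 10 of 11 blood cell genes and 10 of 13 barrier genes. Fibroblast genes had 5 of 9, astrocyte genes 5 of 16 and oligodendrocyte genes 1 of 12. Ptprb had 5.84, 13.2 and 6.15 normalized counts in FT 2 weeks, 3.76 in FT 1 week, 7.33 and 11.9 in HS 2 weeks, 8.73, 3.04 and 11.5 in HS 1 week and 4.01, 10.5 and 7.7 in NI, and was highest in FT 2 weeks replicate 2, which was also highest in 3 of the 10 genes.

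The closest genes to single members differed in kind. Those of Cdh5 were Serpinf1 (r = 0.95), an anti-angiogenic factor made by fibroblast-like cells, and Sfrp1 (0.94), a secreted Wnt modulator. Those of Slco1c1 were Kcnk1 (0.95), a potassium channel, and S1pr1 (0.95), a lipid receptor of endothelium and astrocytes. For Pecam1, Ckap2l (0.95), a mitotic spindle protein, is given. Those of Kdr were Pmaip1 (0.93) and Nfkbiz (0.92), of Tie1 Il6st (0.93) and Spata7 (0.88), and of Tek Zfp719 (0.86) and the endothelial receptor Robo4 (0.82). Those of Cldn5 were Ptprb (0.89) and Zfp715 (0.86), of Flt1 Zfp408 (0.84) and Fbxl12 (0.84), of Ly6c1 Fbxl4 (0.85) and 2610035D17Rik (0.81), and of Esam Arl4a (0.88) and Clk1 (0.87).

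RefSeq promoters (GRCm38.p6, 250 bases before to 50 after the start, on the strand of the gene) were at hand for 7 of the 10 genes. Cldn5, Flt1 and Tek are printed because their levels correlated over the libraries, and Slco1c1 because its level did not follow theirs. Capitals mark the core of the motif of ETS factors, a family that includes Erg, searched as GGAA and TTCC for both strands with overlaps allowed.
Cldn5, chr16:18776597-18776896: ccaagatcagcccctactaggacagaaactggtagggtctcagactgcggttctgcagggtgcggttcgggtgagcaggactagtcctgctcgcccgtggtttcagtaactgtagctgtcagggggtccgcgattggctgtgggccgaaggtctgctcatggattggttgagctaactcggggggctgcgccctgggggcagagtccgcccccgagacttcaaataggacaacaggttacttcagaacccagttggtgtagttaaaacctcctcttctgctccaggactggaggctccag
Flt1, chr5:147725962-147726261: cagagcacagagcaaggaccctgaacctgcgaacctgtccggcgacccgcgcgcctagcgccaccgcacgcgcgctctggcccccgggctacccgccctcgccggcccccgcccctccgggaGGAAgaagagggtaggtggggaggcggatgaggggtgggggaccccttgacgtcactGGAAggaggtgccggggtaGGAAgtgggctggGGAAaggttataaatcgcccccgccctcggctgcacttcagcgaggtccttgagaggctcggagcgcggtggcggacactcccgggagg
Tek, chr4:94739039-94739338: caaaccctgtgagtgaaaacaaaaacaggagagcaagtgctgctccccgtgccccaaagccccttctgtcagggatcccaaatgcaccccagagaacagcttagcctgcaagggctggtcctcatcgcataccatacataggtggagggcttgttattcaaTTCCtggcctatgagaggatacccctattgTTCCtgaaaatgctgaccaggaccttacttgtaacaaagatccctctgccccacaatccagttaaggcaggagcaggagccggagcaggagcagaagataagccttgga
Slco1c1, chr6:141524104-141524403: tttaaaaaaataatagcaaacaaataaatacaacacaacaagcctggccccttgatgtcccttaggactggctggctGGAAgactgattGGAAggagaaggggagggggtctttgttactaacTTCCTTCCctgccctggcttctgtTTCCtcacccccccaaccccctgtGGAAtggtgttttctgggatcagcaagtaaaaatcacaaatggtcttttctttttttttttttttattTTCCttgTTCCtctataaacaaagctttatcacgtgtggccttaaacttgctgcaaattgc
The core was present 0 times for Cldn5, 4 times for Flt1, 2 times for Tek and 8 times for Slco1c1. Of 32851 promoters of the same length, 96.0% held it at least once, with a median of 3, and 46.3%, 84.6% and 3.72% held it at least as often as those of Flt1, Tek and Slco1c1. Tie1 had 9, a number that 1.59% of promoters reach, Kdr 5, and the 2 starts of Ly6c1 4 and 8. A match in letters is no evidence of binding.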

How the data were processed

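Polyadenylated RNA of sorted cells was made into libraries with the Smarter Ultra low and Nextera protocols. Reads were aligned by the authors to mm10 (GRCm38) using TopHat2 2.0.9, counted per gene with HTSeq 0.5.4p3, dropped genes with few counts and normalized by library size in edgeR 3.3.6, by the submitters' processing notes and the study's methods. Strand use in counting is not given in the sources used here. The deposited table holds a signal per gene, its count after the authors' scaling by a library factor. In every column, 100% of the values came out as whole reads within 1e-06, and the factor was 1.001 times that of TMM. Poisson intervals of the reads hold for counting error alone.

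Log2 of the normalized count plus a pseudocount of 1 was tested with limma 3.58.1 (limma-trend, R 4.3.3) in 1 model of the 5 groups, with 3.687 prior and 7 residual degrees of freedom. Tests covered the 16388 genes whose mean reached 0.5 in any group, and p-values were adjusted by Benjamini and Hochberg over them. Fold changes on this scale understate changes of low genes. The tests were tested on simulated data. Alternatives were the quasi-likelihood and likelihood ratio tests of edgeR 4.0.16, DESeq2 1.42.0, other pseudocounts, filters and scalings, array quality weights, only the compared groups, a replicate block and each library left out. Exon lengths and positions are those of GENCODE M21, found for 93.5% of genes. Genes named are the 10 members, Ly6c2, for each other list up to 4 called genes or else its 2 most abundant, and the genes most like the members by Pearson's r. Others were named after their values were seen: Erg, Itm2a and the genes that only another tool called. The members and lists were chosen with earlier results of these data known. Of the genes closest to single members, 1 is not reported here.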

Additional observations from a re-analysis of the deposited data

Results flagged for a closer look

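Selp, P-selectin, differed between FT 1 week, a single library, and other injured groups. The log2 fold change was 1.49 in FT against HS at 1 week and -1.76 in 2 weeks against 1 week after FT, and each passed the test of that difference. Selp had 3.63 normalized counts in FT 1 week and at most 1.15 in any other library. In FT against HS at 1 week the call was lost with a pseudocount of 0.25 (adjusted p = 0.0900), with the same total in every library (0.0789) and with only the compared groups (0.868), and with a pseudocount of 4 the change was under 2-fold. In 2 weeks against 1 week after FT the change was also under 2-fold with a pseudocount of 4, and DESeq2 gave no adjusted p for this gene and did not call it. Both contrasts rest on the FT 1 week library, and whether another library at that time would give the same value was not tested.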

How the results depend on the processing

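Of 217 counts of endothelial genes called under the alternatives, 214 were 0, and leaving out any 1 library gave 0 in every comparison that could still be made. Without the FT 1 week library, its comparisons with NI, HS 1 week and FT 2 weeks could not be made. Array quality weights gave 1 in FT 2 weeks against NI (Pecam1) and 1 in FT against HS at 1 week (Tek), and only the compared groups gave 3 in 2 weeks against 1 week after FT (Cdh5, Slco1c1 and Tie1). Of 455 alternatives for 19 named fold changes of these genes, 0 reversed the sign. Most of the 19 had an unadjusted p under 0.05 in limma, so a reversal was unlikely from the start. None was from HS 1 week or the mean of injured groups against NI. With 1 library left out, the median log2 fold change of the endothelial genes ran from -0.163 to 0.325 and from -0.131 to 0.159 there. In FT against HS at 2 weeks this median ran from -0.452 to 0.058, and in the other comparisons it kept its sign. Replicate numbers were not treated as pairs in the main model. Of 15 same-numbered pairs, 5 had a correlation over 0.1, with a range from -0.48 to 0.72. These correlations use deviations from the means of small groups, which are tied to each other, so they cannot exclude pairing. With a replicate block 0 endothelial genes were called, and over all genes 26, 6 and 7 were called in FT 2 weeks, HS 2 weeks and HS 1 week against NI, beside 7, 2 and 1 without it.

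Counts over all genes depended more on the tool. In FT 2 weeks, FT 1 week, HS 2 weeks, HS 1 week and the mean of injured groups against NI, limma called 7, 74, 2, 1 and 48 genes, the likelihood ratio test 363, 297, 124, 61 and 670, DESeq2 340, 370, 124, 83 and 542, and array quality weights 1447, 928, 76, 1267 and 1199. Without NI replicate 1 limma called 458, 149, 36, 11 and 371, and without NI replicate 2 it called 0, 55, 1, 0 and 1. In 2 weeks against 1 week after FT it called 63, and 1575 with only the compared groups. Scaling to the same total gave a median fold change of all genes of down to -0.27 (log2, FT 1 week against NI, beside -0.02 without it) and the split of calls there to 46 higher and 21 lower, against 61 and 13. Depth limits the rare genes, as 3 reads correspond to 0.184 to 0.403 normalized counts.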

Other observations

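Blood cell genes, which include Ly6c2, had fold changes below 0 for 11 of 11 genes in each injured group against NI, with medians of -1.86 in FT 2 weeks, -1.31 in FT 1 week, -1.60 in HS 2 weeks and -1.62 in HS 1 week. S100a8, a calcium-binding protein of neutrophils, had 9.71, 23.1 and 38.0 normalized counts in FT 2 weeks, 9.54 in FT 1 week, 18.1 and 25.9 in HS 2 weeks, 26.1, 59.4 and 579 in HS 1 week and 173, 1573 and 3291 in NI. The 2 highest libraries were NI replicates 3 and 2, and limma called 0 of the 11 genes in any of these comparisons, with unadjusted p-values under 0.05 for 8, 4, 6 and 6 of them. The shares over all genes were 10.8%, 11.2%, 7.49% and 7.66%. The likelihood ratio test called 5, 3, 4 and 0 of them, where it called 363, 297, 124 and 61 of all 16388 genes.

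Itm2a, a membrane protein of the barrier list, had 95.2, 188 and 123 normalized counts in FT 2 weeks, 27.4 in FT 1 week, 45.5 and 105 in HS 2 weeks, 66.6, 37.8 and 38.8 in HS 1 week and 147, 44.5 and 34.98 in NI. The 4 highest Itm2a libraries were FT 2 weeks replicates 2 and 3, NI replicate 1 and HS 2 weeks replicate 2, and FT 1 week was the lowest. Of these, FT 2 weeks replicates 2 and 3 and NI replicate 1 were also among the 4 highest in Cdh5. No comparison called Itm2a.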
